A study of Mus musculus with 12 samples.

Results

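C-type lectin receptors of myeloid cells were followed in cultures of bone marrow mesenchymal stem cells (MSCs) that had been placed in osteogenic or adipogenic medium. The 10 genes were Clec4n, Clec4d, Clec4e, Clec4a1, Clec4a2, Clec4a3, Clec5a, Clec7a, Clec10a and Clec12a, out of 54532 mouse genes in the table. They were listed by name, and Clec4n was selected on its measured values, because the difference between knockout and control libraries changed so much from one medium to the other. For that reason the values of Clec4n within each medium, and the difference of differences of every member, are given as a description with no test.

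The control mice were Chd7fl/fl. The mice labelled Chd7 KO were Prx1-cre;Chd7fl/fl, in which Cre recombinase from a promoter of early limb mesenchyme deletes exon 2 of Chd7. Both were C57BL/6 and 4 weeks old, so the floxed allele was shared by all groups and the Cre transgene was carried by the knockout mice alone. MSCs flushed from femurs, tibiae and humeri were used at passage 3, and RNA was taken 5 days after induction. For the osteogenic cultures the additions were β-glycerophosphate at 10 mM, ascorbic acid at 50 µM and dexamethasone at 10 nM. For the adipogenic cultures they were isobutylmethylxanthine at 0.5 µM, insulin at 10 µg/ml and dexamethasone at 1 µM. There were 3 libraries in each of the 4 groups and 12 in all, with 17490797 to 21093450 fragments on genes per library. The labels do not say whether the 3 libraries of a group came from separate mice, so that p-values measure only the spread between these libraries.

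C-type lectin receptors of myeloid cells are surface proteins that bind sugars and lipids of microbes and of damaged host cells. The activating members pass their signal through an ITAM, a tyrosine motif that lies either in their own tail or in the partner chains encoded by Fcer1g and Tyrobp. The kinase encoded by Syk and the adaptor encoded by Card9 then carry it towards NF-κB and cytokine genes. Other members hold an ITIM, an inhibitory motif that recruits phosphatases such as the one encoded by Ptpn6. In marrow these receptors are known from macrophages, monocytes, neutrophils and dendritic cells and not from stromal cells.

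By position, 6 of the genes lay in one cluster on chromosome 6 (GRCm38, GENCODE M21), spread over 368 kb. From one end to the other these were Clec4a1 (chr6:122921848-122934619), Clec4a3 (chr6:122952515-122969875), Clec4a2 (chr6:123106428-123143999), Clec4n (chr6:123229843-123247021), Clec4d (chr6:123262111-123275265) and Clec4e (chr6:123281789-123289870). Clec4n and Clec4d were 15.1 kb apart and Clec4d and Clec4e 6.5 kb apart. Clec12a (chr6:129342691-129365303) and Clec7a (chr6:129461591-129472779) formed a second neighbourhood with 96.3 kb between them. Clec5a (chr6:40574894-40585821) lay far away on the same chromosome and Clec10a (chr11:70156197-70170834) on chromosome 11. Clec4e, Clec5a and Clec7a were on the minus strand and the others on the plus strand. All but Clec7a were annotated as protein-coding, and Clec4a2 overlapped Gm44132 on the same strand. Clec7a was annotated as a polymorphic pseudogene, a class for genes that are intact in some strains.

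RefSeq (GRCm38.p6) held a start site for 8 of the 10 genes. The 250 bases before the start are shown for Clec4d and Clec4e, neighbours whose levels were highest in the same libraries. They are shown as well for the neighbours Clec12a and Clec7a. The genotype differences of these had opposite signs in osteogenic medium (-0.24, not called, and 1.08) and the same sign in adipogenic medium. Capitals mark matches, on either strand, to TTGCNNAA (a C/EBP site) or TGANTCA (an AP-1 site), which do not overlap in these windows.
Clec4d (chr6:123261857-123262106, plus strand): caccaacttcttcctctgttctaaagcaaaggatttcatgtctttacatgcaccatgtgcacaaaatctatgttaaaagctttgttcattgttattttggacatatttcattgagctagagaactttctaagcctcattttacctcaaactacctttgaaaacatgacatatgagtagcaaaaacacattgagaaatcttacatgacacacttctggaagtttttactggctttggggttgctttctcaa
Clec4e (chr6:123289872-123290121, minus strand): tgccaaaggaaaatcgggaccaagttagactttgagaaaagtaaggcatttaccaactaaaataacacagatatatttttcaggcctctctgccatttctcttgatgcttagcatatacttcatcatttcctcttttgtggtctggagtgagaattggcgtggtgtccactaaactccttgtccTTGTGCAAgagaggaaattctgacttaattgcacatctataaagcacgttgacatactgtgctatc
Clec12a (chr6:129349994-129350243, plus strand): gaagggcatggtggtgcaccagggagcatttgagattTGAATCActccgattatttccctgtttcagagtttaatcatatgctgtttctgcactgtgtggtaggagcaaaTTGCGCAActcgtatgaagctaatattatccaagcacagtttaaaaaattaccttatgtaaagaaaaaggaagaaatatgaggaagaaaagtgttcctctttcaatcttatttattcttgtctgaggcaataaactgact
Clec7a (chr6:129472780-129473029, minus strand): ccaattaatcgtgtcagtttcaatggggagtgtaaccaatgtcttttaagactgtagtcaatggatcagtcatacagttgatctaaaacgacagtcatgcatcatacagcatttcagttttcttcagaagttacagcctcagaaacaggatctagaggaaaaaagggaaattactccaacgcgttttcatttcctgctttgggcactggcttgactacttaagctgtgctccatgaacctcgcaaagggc
The C/EBP letters were found before 2 of the 8 genes, Clec4e (-66 to -59 from the start) and Clec12a (-140 to -133), and before 9.56% of 32851 promoters of the same length. The AP-1 letters were found before Clec12a (-213 to -207) and before 6.75% of all promoters. GAGGAAGT, a form of the PU.1 site, was found before none of the 8 and before 2.44% of all. The shorter ETS core GGAAGT, which lies within it, stood before Clec4a2 and Clec4d and before 19.7% of all. The RefSeq start of Clec12a lies inside the span that GENCODE gives the gene. These matches are letters in a window and not evidence of binding.

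As for the libraries, Chd7 itself was measured at 2.64, 2.67 and 2.77 FPKM (fragments per kilobase of gene, scaled to depth) in control and at 2.03, 2.35 and 2.28 FPKM in knockout libraries of osteogenic medium. In adipogenic medium it was 2.26, 1.81 and 2.23 FPKM in control and 2.03, 2.35 and 2.48 FPKM in knockout libraries. The groups did not overlap in osteogenic medium, but neither difference passed the test (log2 difference -0.20, adjusted p = 0.160, and 0.09, adjusted p = 0.428). The value counts the whole gene, most of which lies outside the deleted exon, and so it does not check the labels. Genotype is therefore given as labelled throughout. Macrophage markers were abundant in every library although the cells were labelled MSCs, and their 20 genes summed to between 9417 and 21152 FPKM. Of other blood cells, Cd3e, Cd3g, Ncr1, Siglech and Mcpt4 were listed at 0 in all 12 libraries, and the neutrophil markers are given below with the macrophage markers. In such mixed cultures fewer cells of a type and less RNA per cell cannot be told apart.

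A pair of adipogenic libraries stood apart. Control adipogenic library 2 had a mean correlation of 0.941 with the other control adipogenic libraries but of 0.981 with control osteogenic and 0.983 with knockout osteogenic libraries, across genes. Knockout adipogenic library 1 was closest to its own group (0.981) and differed from the other 2 in a smaller set of genes. The adipogenic genotype difference of each tested member that passed is therefore given also without one or the other of these libraries.

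Clec4n, which encodes the fungal mannan receptor Dectin-2, had opposite genotype differences in the media. In osteogenic medium it was 51.1, 50.1 and 50.4 FPKM in control and 121, 131 and 129 FPKM in knockout libraries. In adipogenic cultures it was 255, 57.3 and 264 FPKM in control and 16.4, 6.43 and 6.52 FPKM in knockout libraries. All knockout libraries were thus above all controls in osteogenic medium and below all controls in adipogenic medium. The mean in osteogenic medium was 2.51 times higher in knockout (127 ± 5.57 FPKM) than in control libraries (50.6 ± 0.51 FPKM, SD, n = 3). The mean in adipogenic medium was 19.6 times higher in control (192 ± 117 FPKM) than in knockout libraries (9.78 ± 5.72 FPKM, SD, n = 3). On the log2(FPKM + 1) scale the knockout minus control differences were 1.31 ± 0.52 and -4.00 ± 0.52 (SE), and the second minus the first was -5.31 ± 0.74. These values rested on 1197 to 3366 fragments per library in osteogenic and 172 to 6076 in adipogenic medium.

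The average of both media is not the measure by which Clec4n was selected. It is not independent of that measure either, because the spread was wider in adipogenic medium. Its p for Clec4n is therefore a description and no separate support. Averaged over the media, Clec4n was lower in knockout libraries by a log2 difference of -1.34 ± 0.37 (SE, limma with Benjamini-Hochberg adjustment, adjusted p = 0.026). This call was lost when any of 10 of the 12 libraries was left out, with an adjusted p of up to 0.066, and with no filter on low values (adjusted p = 0.059). Without control adipogenic library 2 the value was -1.70 (adjusted p = 0.00011), and without knockout adipogenic library 1 it was -1.55 (adjusted p = 0.016).

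**Figure D1:**
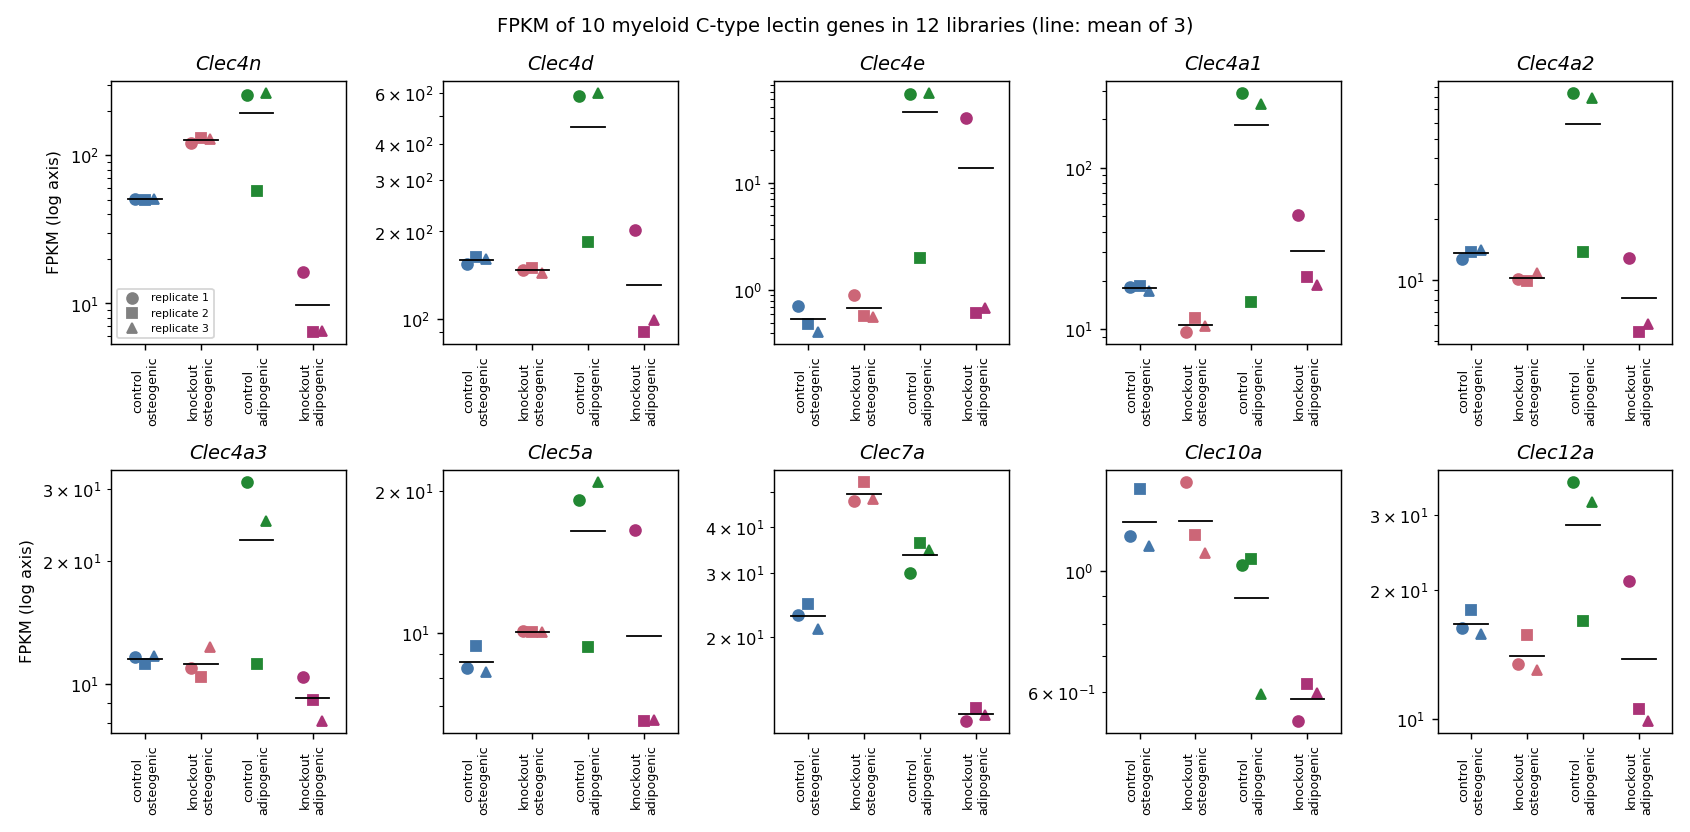
FPKM of the 10 myeloid C-type lectin genes in the 12 libraries, on a log axis that differs between panels. Symbols mark replicates 1, 2 and 3 of each group, and lines are means of 3. Control adipogenic library 2 (square) sits below the other controls of that medium for 8 of the 10 genes, all but Clec7a and Clec10a.

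Clec4d and Clec4e encode MCL and Mincle, a pair of receptors for the mycobacterial glycolipid trehalose dimycolate. Clec4d was the highest of the 10 genes in all 4 groups. It was 155, 164 and 160.3 FPKM in control and 148, 149 and 144 FPKM in knockout libraries of osteogenic medium, and 585, 184 and 598 FPKM in control and 203, 90.3 and 99.4 FPKM in knockout libraries of adipogenic medium. The adipogenic groups overlapped only through control library 2, which lay below knockout library 1. Clec4d was lower in knockout libraries of adipogenic medium (log2 difference -1.71 ± 0.42, SE, adjusted p = 0.012). Without control adipogenic library 2 it was -2.27, and without knockout adipogenic library 1 it was -2.07, both past the threshold. In osteogenic medium the difference was -0.12 ± 0.42 (adjusted p = 0.916).

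Clec4e was close to absent in osteogenic medium, at 0.722, 0.491 and 0.41 FPKM in control and 0.897, 0.579 and 0.564 FPKM in knockout libraries. In adipogenic cultures Clec4e was 66.4, 1.97 and 67.9 FPKM in control and 39.9, 0.609 and 0.689 FPKM in knockout libraries. It was thus high in 3 of the 6 adipogenic libraries, which came from both genotypes, and near the osteogenic level in the other three. The genotype difference in adipogenic medium was not called (-2.32 ± 1.36, adjusted p = 0.215), and was -3.83 without control adipogenic library 2 and -3.86 without knockout adipogenic library 1. Clec4e had an FPKM of 1 or more in 4 libraries, the 3 control adipogenic libraries and knockout adipogenic library 1. It so entered the fit only through the medium, and mainly through the group, in which it was high. Its genotype differences, with their adjusted p, are therefore a description. The difference of Clec4e between media (2.74 ± 0.96, SE) is likewise a description with no test.

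The Clec4a genes encode the DCIR family, of which the Clec4a2 product holds an ITIM. Clec4a2 was 12.8, 13.8 and 14.2 FPKM in control and 10.2, 9.94 and 10.8 FPKM in knockout libraries of osteogenic medium, and 84.1, 13.8 and 79.2 FPKM in control and 12.9, 5.57 and 6.10 FPKM in knockout libraries of adipogenic medium. The knockout libraries were below all controls in both media. The difference passed the test in adipogenic medium (-2.43 ± 0.57, adjusted p = 0.0093) and as an average over media (-1.40 ± 0.40, adjusted p = 0.031), and not in osteogenic medium (-0.36 ± 0.57, adjusted p = 0.771). In adipogenic medium it was -3.25 without control library 2 and -2.77 without knockout library 1, both past the threshold. The call on the average was lost when any of 10 of the 12 libraries was left out, under limma voom and with no filter on low values, with an adjusted p of up to 0.074, and it was -1.81 (adjusted p = 3.0e-05) without control adipogenic library 2. Of the 50-base stretches in Clec4a2 transcripts, 6.83% also occurred in transcripts of another gene, most of them in Clec4a4, which was at or below 1.25 FPKM in all libraries.

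Clec4a1 was 18.3, 18.4 and 17.4 FPKM in control and 9.65, 11.7 and 10.6 FPKM in knockout libraries of osteogenic medium, and 289.9, 14.9 and 247 FPKM in control and 51.1, 21.1 and 18.8 FPKM in knockout libraries of adipogenic medium. Control adipogenic library 2 was the lowest of the 6 adipogenic libraries, below every knockout library. The genotype difference in adipogenic medium therefore came with a wide error (-1.88 ± 0.90, adjusted p = 0.134) and became -3.24 (adjusted p = 3.2e-05) without that library. Clec4a1 was higher in adipogenic than in osteogenic medium on average over genotypes (1.87 ± 0.64, adjusted p = 0.048). This call was lost without any of 11 of the 12 libraries and under 4 of 7 other alternatives, with an adjusted p of up to 0.106, and stood at 2.55 (adjusted p = 1.3e-05) without control adipogenic library 2.

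Clec4a3 was 11.6, 11.2 and 11.7 FPKM in control and 10.9, 10.4 and 12.3 FPKM in knockout libraries of osteogenic medium, which overlapped. Clec4a3 in adipogenic medium was 31.2, 11.2 and 25.0 FPKM in control and 10.4, 9.11 and 8.13 FPKM in knockout libraries, which did not. It was lower in knockout libraries of adipogenic medium (-1.09 ± 0.28, adjusted p = 0.014). That call was lost without control library 3 or knockout library 3 of that medium, with an adjusted p of up to 0.055. The difference was -1.51 without control library 2 and -1.17 without knockout library 1, both past the threshold. In osteogenic medium the difference was -0.04 ± 0.28 (adjusted p = 0.959).

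Clec7a encodes Dectin-1, the receptor for fungal β-glucan, which carries a hemITAM in its own tail. It was 22.9, 24.7 and 21.0 FPKM in control and 47.2, 53.4 and 47.8 FPKM in knockout libraries of osteogenic medium. In adipogenic medium it was 30.03, 36.2 and 34.6 FPKM in control and 11.8, 12.8 and 12.2 FPKM in knockout libraries. Neither of the libraries that stood apart did so for Clec7a. Clec7a was higher in knockout libraries of osteogenic medium (1.08 ± 0.08, SE, adjusted p = 7.6e-05) and lower in knockout libraries of adipogenic medium (-1.38 ± 0.08, adjusted p = 3.3e-06). Without control adipogenic library 2 the second was -1.33, and without knockout adipogenic library 1 it was -1.35. Both calls held in all 12 fits that left out a library and in all 8 other alternatives. The difference between the 2 effects was -2.46 ± 0.12 (SE). Averaged over media the opposite differences nearly cancelled (-0.15 ± 0.06, adjusted p = 0.089).

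Clec7a was also lower in adipogenic than in osteogenic medium on average over genotypes (-0.70 ± 0.06, adjusted p = 4.4e-05). In control libraries the order was the reverse, since all 3 adipogenic controls lay above all 3 osteogenic controls, and in knockout libraries all adipogenic values lay below all osteogenic ones. Among the 9 members other than Clec4n, Clec7a was the 1 with groups apart in opposite directions in the 2 media, a pattern that 8.65% of all 12871 genes tested had. Clec4n had it as well, but was selected for it.

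Clec12a and Clec5a are receptors with opposite signals, as the Clec12a product (MICL) holds an ITIM and the Clec5a product (MDL-1) pairs with the Tyrobp chain. Clec12a was 16.3, 18.0 and 15.8 FPKM in control and 13.4, 15.7 and 12.98 FPKM in knockout libraries of osteogenic medium, and 35.9, 16.9 and 32.3 FPKM in control and 21.1, 10.5 and 9.91 FPKM in knockout libraries of adipogenic medium. It was lower in knockout libraries of adipogenic medium (-0.996 ± 0.30, adjusted p = 0.028), although the groups overlapped. The call was lost in 4 of the 12 fits that left out a library, with an adjusted p of up to 0.104, and with no filter on low values. It was -1.32 without control adipogenic library 2 (adjusted p = 0.0017) and -1.32 without knockout adipogenic library 1 (adjusted p = 0.0053).

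Clec5a was 8.41, 9.37 and 8.27 FPKM in control and 10.1, 10.0 and 10.0 FPKM in knockout libraries of osteogenic medium, and 19.1, 9.32 and 20.9 FPKM in control and 16.5, 6.51 and 6.52 FPKM in knockout libraries of adipogenic medium. The adipogenic difference did not pass the test (-0.74 ± 0.34, adjusted p = 0.1202). It did without control adipogenic library 2 (-1.08, adjusted p = 0.013) and without knockout adipogenic library 1 (-1.14, adjusted p = 0.012).

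Clec10a, a receptor for galactose and N-acetylgalactosamine, was low throughout. It was 1.16, 1.42 and 1.11 FPKM in control and 1.46, 1.16 and 1.08 FPKM in knockout libraries of osteogenic medium, and 1.03, 1.05 and 0.596 FPKM in control and 0.533, 0.622 and 0.599 FPKM in knockout libraries of adipogenic medium. These values rested on 28 to 76 fragments per library. Clec10a was lower in adipogenic medium on average over genotypes (-0.37 ± 0.08, adjusted p = 0.0081), a call that held in all 12 fits that left out a library. It had an FPKM of 1 or more in 8 libraries, of which 6 were osteogenic, so that the filter itself favoured genes higher in that medium. The gene Mgl2 shared most of the 9.02% of 50-base stretches that Clec10a had in common with other genes, and was at or below 0.157 FPKM.

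Counting over the members, 1 of the 9 other than Clec4n passed the test in osteogenic medium, where 9.09% of all genes did. The median log2 difference of the 9 was -0.04, against -0.01 for all genes tested. In adipogenic medium 5 of the 9 passed, all lower in knockout libraries (Clec4d, Clec4a2, Clec4a3, Clec7a and Clec12a). There 33.2% of all genes passed and 16.5% passed as lower. The median of the 9 was -1.38, against -0.01 for all genes, and all 9 values were below 0. Clec4e entered the fit mainly through the control group in which it was high, and stands in the genotype counts as a description. Of all genes 2153 were called higher and 2123 lower. With equal sums per library (TPM) the median of all genes moved to 0.14 and the calls to 3264 higher and 898 lower, and the same 5 members were called, all lower.

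The spread was unequal between the media, since osteogenic replicates were tight and adipogenic ones were not, and all 12 libraries shared 1 estimate of it. Fitted to the 6 osteogenic libraries alone, 5 of the 9 members passed, as did 26.6% of all genes. Clec4a1 (-0.71, adjusted p = 0.00064), Clec4a2 (-0.36, adjusted p = 0.0028) and Clec4d (-0.12, adjusted p = 0.032) were then lower in knockout libraries, and Clec5a (0.19, adjusted p = 0.030) and Clec7a (1.08, adjusted p = 0.00019) were higher. Some osteogenic replicates were closer than counting alone would make them, such as those of Clec5a in knockout libraries (SD of 0.0193 FPKM on 694 to 701 fragments). Fitted to the 6 adipogenic libraries alone, Clec7a was the 1 member of 9 that passed (adjusted p = 0.0019), a share near the 13% of all genes that did. Clec4a2 (adjusted p = 0.085), Clec4d (adjusted p = 0.096), Clec4a3 (adjusted p = 0.101) and Clec12a (adjusted p = 0.136) did not. The adipogenic calls other than that of Clec7a were thus made only with the spread taken over both media.

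Averaged over the media, 2 of the 10 members were called, Clec4n and Clec4a2, both lower in knockout libraries. There 22.7% of all genes were called and 10.4% were called as lower. Clec4n stands in this count as a description, since it was selected on values that weigh in this average. The values of all 10 were below 0, with a median of -0.76 against -0.01 for all genes. Between media, 3 of the 10 were called (Clec4a1 higher, Clec7a and Clec10a lower in adipogenic medium), against 31.5% of all genes. Without control adipogenic library 2 the first count rose to 6 of 10 and the second to 9 of 10 with Clec4e among them. The shares of all genes rose too, to 44.3% and 51.8%. Clec4e entered the fit through adipogenic libraries alone, and Clec10a mostly through osteogenic ones. Both therefore stand in the medium counts as a description, as Clec4e does in the genotype counts.

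By overlap alone, the groups were apart in osteogenic medium for 6 of the 9 members other than Clec4n, 2 higher and 4 lower in knockout libraries, as were those of 44.3% of all genes. In adipogenic medium they were apart for 3 of the 9, all lower (Clec4a2, Clec4a3 and Clec7a), as were those of 38.6% of all genes.

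**Figure D2:**
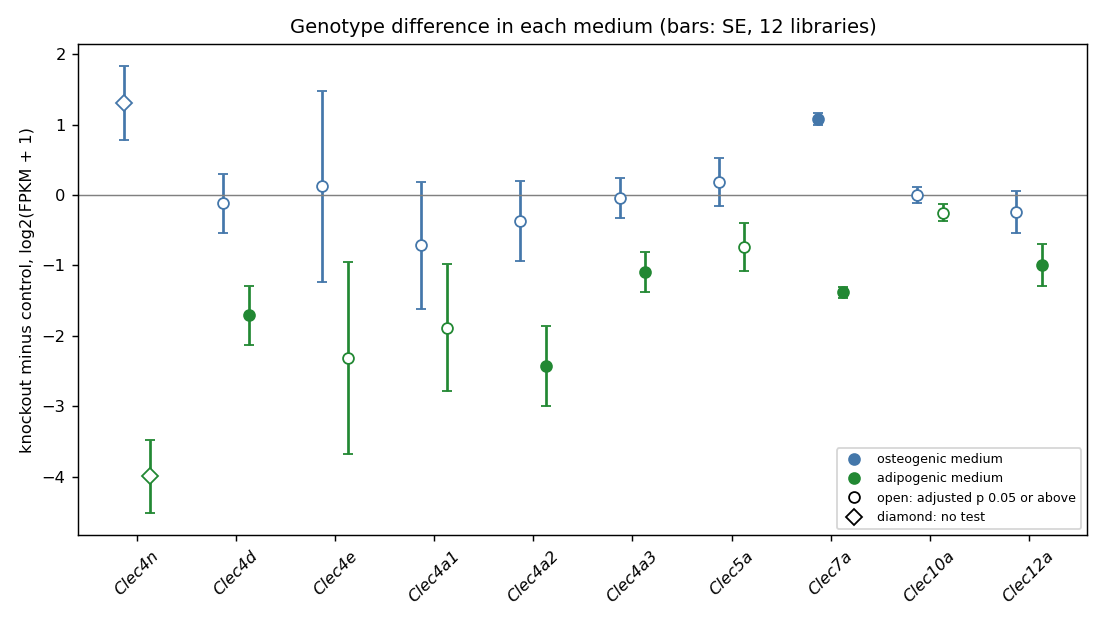
Knockout minus control difference of each member in log2(FPKM + 1), in osteogenic (blue) and adipogenic (green) medium, with SE bars from the fit to 12 libraries. Filled circles passed an adjusted p of 0.05, open circles did not, and diamonds mark Clec4n, which was not tested. All adipogenic values lie below 0, from -0.25 for Clec10a to -4.00 for Clec4n, and Clec7a lies at 1.08 and -1.38 with an SE of 0.08 on each side.

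Among themselves the members kept a similar order of levels in osteogenic medium. In control libraries Clec4d (159.7 ± 4.59 FPKM, SD, n = 3) was followed by Clec4n (50.6 ± 0.51), Clec7a (22.9 ± 1.85), Clec4a1 (18.0 ± 0.559) and Clec12a (16.7 ± 1.12), of which the last 2 overlapped. Then came Clec4a2 (13.6 ± 0.73), Clec4a3 (11.5 ± 0.277), Clec5a (8.68 ± 0.60), Clec10a (1.23 ± 0.163) and Clec4e (0.541 ± 0.162), each apart from the next. In knockout osteogenic libraries Clec4d, Clec4n and Clec7a again led, and Clec4a3, Clec4a1, Clec4a2 and Clec5a overlapped one with the next. In control adipogenic libraries the spread was so wide that every neighbour in the order overlapped except Clec5a and Clec10a. In knockout adipogenic libraries Clec4d stood clear of the rest and Clec4n was 7th of the 10.

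Set against its neighbour Clec4d, Clec4n separated the genotypes in every library. The ratio of Clec4n to Clec4d FPKM was 0.330, 0.306 and 0.315 in control and 0.815, 0.878 and 0.894 in knockout libraries of osteogenic medium. In adipogenic medium it was 0.435, 0.311 and 0.442 in control and 0.0808, 0.0711 and 0.0656 in knockout libraries. Control adipogenic library 2 had the ratio of an osteogenic control, and knockout adipogenic library 1 was close to the other knockout libraries although its Clec4n was 16.4 FPKM against 6.43 and 6.52 FPKM. Because Clec4n was selected on this difference, no test was made.

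**Figure D3:**
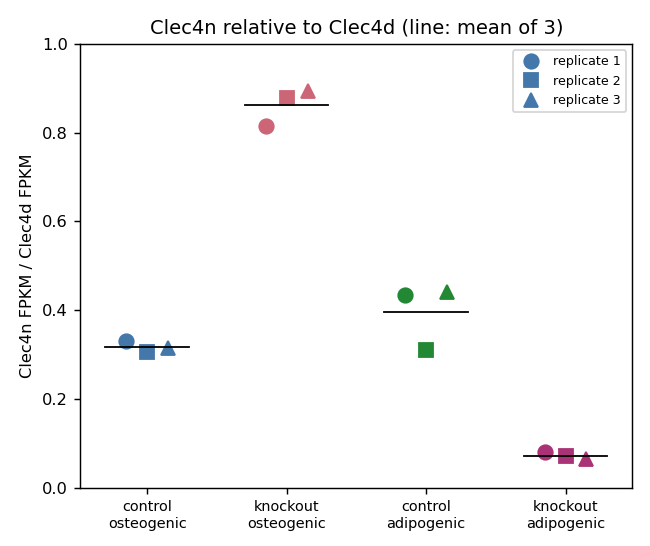
Ratio of Clec4n to Clec4d FPKM in each library. Symbols are replicates 1, 2 and 3, and lines are means of 3. The 4 groups have means of 0.317, 0.862, 0.396 and 0.0725 from left to right, and no knockout library reaches the range of the controls of its medium.

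The pair of libraries that stood apart did so most for Clec4e and least for Clec7a and Clec10a. On the log2(FPKM + 1) scale, control adipogenic library 2 was below the mean of libraries 1 and 3 by 4.52 for Clec4e, 4.08 for Clec4a1, 2.48 for Clec4a2, 2.16 for Clec4n and 1.68 for Clec4d. Knockout adipogenic library 1 was above the mean of libraries 2 and 3 by 4.63 for Clec4e, 1.32 for Clec4a1 and 1.22 for both Clec4n and Clec5a, but by only 0.25 for Clec4a3. For Clec7a the distances were 0.16 and -0.08 and for Clec10a 0.19 and -0.07. Over all genes tested the median size of these distances was 0.21 and 0.0998.

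**Figure D4:**
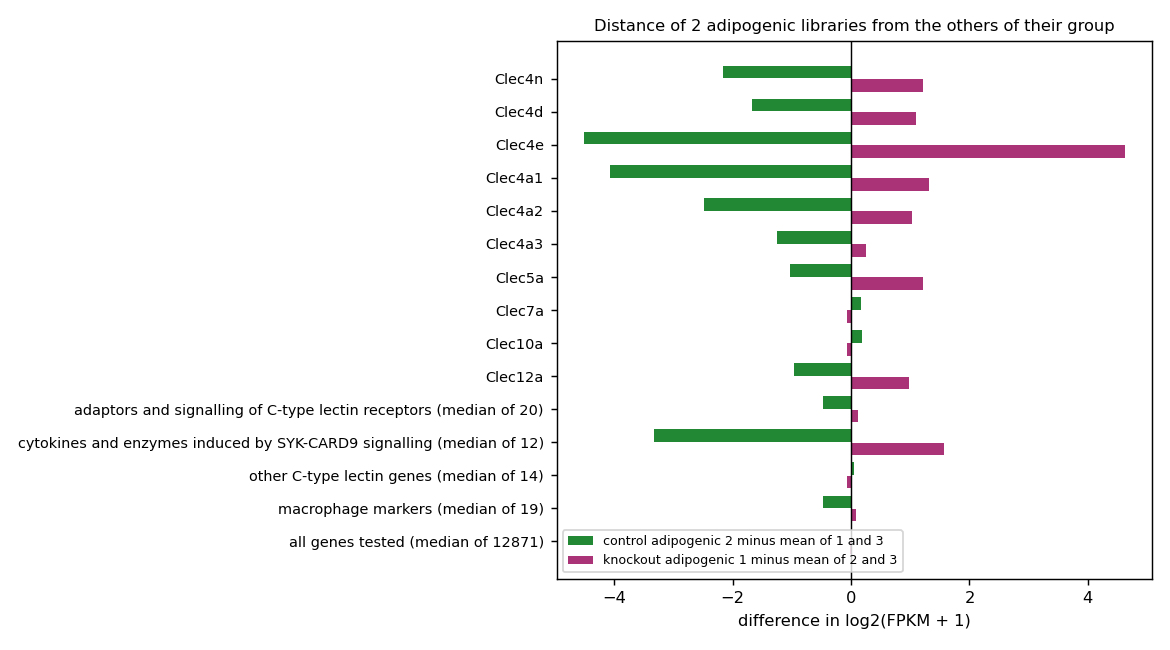
Distance in log2(FPKM + 1) of control adipogenic library 2 (green) and knockout adipogenic library 1 (purple) from the mean of the other 2 libraries of their group, for each member and as the median of 4 lists and of all genes tested. Clec4e has the longest bars among the members, -4.52 and 4.63, and Clec7a and Clec10a have almost none. The cytokine list has medians of -3.33 and 1.57.

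The signalling partners were expressed in all libraries, and all 20 genes listed were tested. In osteogenic medium 1 was lower and none higher in knockout libraries, with a median log2 difference of -0.12. In adipogenic medium 10 were lower and none higher (median -0.42). The adipogenic calls of this list and of those below also come from the fit to 12 libraries, with the spread taken over both media. With the 6 adipogenic libraries alone 13% of all genes passed. Averaged over media 9 were lower (median -0.28), and between media 2 were higher and 6 lower in adipogenic medium. Of all genes tested, 9.09% passed in osteogenic medium, and 33.2% in adipogenic medium, 16.5% as lower. Averaged over media 22.7% passed, 10.4% as lower, and between media 31.5% passed. The medians of all genes were -0.01 for each of the genotype differences.

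Fcer1g, the ITAM chain that partners Dectin-2, MCL and Mincle, was 423, 466 and 466 FPKM in control and 414, 407 and 414 FPKM in knockout libraries of osteogenic medium, and 639.9, 419.6 and 573 FPKM in control and 364, 306 and 326 FPKM in knockout libraries of adipogenic medium. It was lower in knockout libraries of adipogenic medium (-0.69 ± 0.13, adjusted p = 0.0032). Tyrobp, the chain that partners the Clec5a product, was lower there too (-0.42 ± 0.06, adjusted p = 0.00064), at 505 to 536 against 663 to 748 FPKM. Neither passed in osteogenic medium (-0.13, adjusted p = 0.623, and -0.15, adjusted p = 0.168).

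Syk followed the libraries that stood apart, at 82.8, 28.9 and 77.4 FPKM in control and 42.2, 22.0 and 21.0 FPKM in knockout libraries of adipogenic medium (-1.06 ± 0.36, adjusted p = 0.048). Ptpn6 had the same shape, at 146, 62.0 and 135 FPKM in control and 70.1, 43.4 and 43.1 FPKM in knockout libraries (-1.06 ± 0.29, adjusted p = 0.018). For both genes the groups overlapped. Card9 showed little of this, at 14.0, 14.7 and 13.9 FPKM in control and 13.8, 12.7 and 13.6 FPKM in knockout libraries (-0.08 ± 0.05, adjusted p = 0.231). It was lower in knockout libraries of osteogenic medium (-0.24 ± 0.05, adjusted p = 0.018) and lower in adipogenic than in osteogenic medium (-0.30 ± 0.04, adjusted p = 0.00030).

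Of 16 cytokine and enzyme genes known as targets of SYK and CARD9 signalling, 12 were tested. In knockout libraries 1 was higher in osteogenic medium, where 9.09% of all genes were called. In adipogenic medium 2 were lower, where 33.2% were called and 16.5% as lower. Averaged over media 0 of the 12 were called by limma and 0 by limma voom, and 22.7% of all genes were called by each. By limma 1 of the 12 had an unadjusted p under 0.05. Without control adipogenic library 2 the count was 11 of 12, where 44.3% of all genes were called, and without knockout adipogenic library 1 it was 0 of 9, where 21.2% were. The largest average genotype differences were those of Il1b (-1.71 ± 0.85, adjusted p = 0.178), Cxcl2 (-1.62 ± 1.07, adjusted p = 0.307) and Il6 (-1.16 ± 0.59, adjusted p = 0.185). Il1b, Cxcl2 and Il6 reached an FPKM of 1 only in control adipogenic libraries 1 and 3 and in knockout adipogenic library 1. They thus entered the fit mainly through the group in which they were high. Their genotype values and their place in the genotype counts above are a description, and Il6 was 1 of the 2 called lower in adipogenic medium. Cxcl2, a neutrophil chemokine, was 105, 0.809 and 114 FPKM in control and 19.3, 0.282 and 0.178 FPKM in knockout libraries of adipogenic medium, and at or below 0.274 FPKM in osteogenic medium. Its values were high in the same libraries as those of Clec4e. Between media 2 genes were higher in adipogenic medium, Cxcl1 among them, and 1 was lower, where 31.5% of all genes were called. The largest medium differences were those of Cxcl2 (3.06 ± 1.07), Cxcl1 (2.65 ± 0.88) and Il1b (2.21 ± 0.85). Cxcl2 and Il1b reached an FPKM of 1 in adipogenic libraries alone, and Cxcl1 in those and in control osteogenic library 3. All 3 thus entered the fit through the medium in which they were high, so these medium differences are a description with no test.

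Of 53 other C-type lectin genes 14 were tested and 7 were listed at 0 in all libraries. The 14 were mixed. In adipogenic medium 2 were higher and 5 lower in knockout libraries (median 0.03), where 33.2% of all genes passed. Averaged over media 4 were higher and 2 lower (median 0.11), where 22.7% of all genes passed. Cd72, a B-cell and macrophage co-receptor with an ITIM, was 17.0, 16.1 and 17.2 FPKM in control and 5.84, 5.15 and 5.26 FPKM in knockout libraries of osteogenic medium, and 74.6, 17.9 and 59.3 FPKM in control and 12.1, 5.49 and 5.84 FPKM in knockout libraries of adipogenic medium. It was lower in knockout libraries averaged over media (-1.94 ± 0.31, adjusted p = 0.0019), and its groups did not overlap in either medium. Clec4b1, which lies inside the cluster on chromosome 6, was lower as well (-0.74 ± 0.19, adjusted p = 0.018), at levels of 0.0671 to 2.56 FPKM. Cd302 did not pass (-0.56 ± 0.25, adjusted p = 0.137).

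Between media Clec2d was higher in adipogenic medium (0.54 ± 0.14, adjusted p = 0.019), whereas Cd72 (0.85 ± 0.31, adjusted p = 0.064) and the mannose receptor gene Mrc1 (-0.68 ± 0.26, adjusted p = 0.066) did not pass. Mrc1 had the reverse of the Clec4e pattern, at 36.8, 107 and 35.7 FPKM in control and 62.6, 110.3 and 101 FPKM in knockout libraries of adipogenic medium. It was low in the libraries in which Clec4e was high. Across lectin genes the libraries that stood apart thus differed in both directions.

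**Figure D5:**
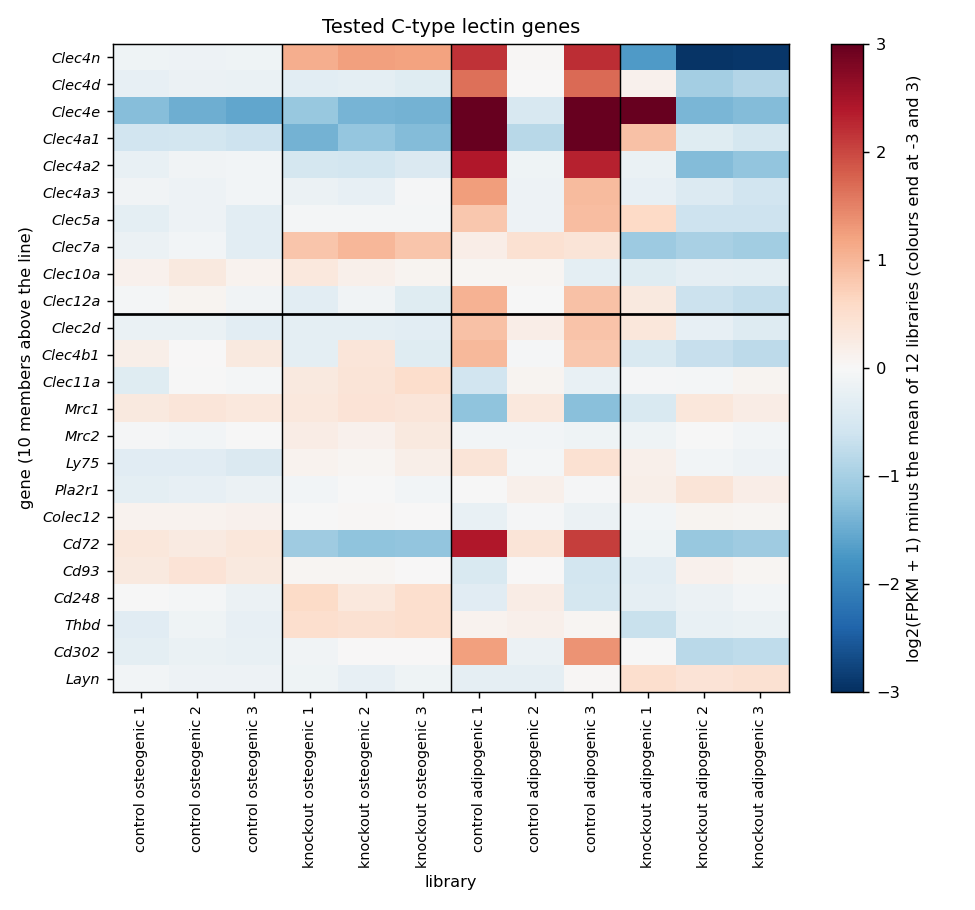
Levels of the 10 members (above the line) and the 14 other C-type lectin genes tested, as log2(FPKM + 1) minus the mean of the gene over 12 libraries, with one column per library. Red is above and blue below the mean, and colours end at -3 and 3. Columns of control adipogenic libraries 1 and 3 are red for most members, column 2 of that group is close to the osteogenic columns, and Mrc1 shows the reverse colours.

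Macrophage markers moved with several of these results. Of 20 markers 19 were tested. In knockout libraries of adipogenic medium 3 were higher and 10 lower, where 33.2% of all genes passed and 16.5% passed as lower. Those higher were C1qa (0.67), Mertk (0.49) and C1qb (0.36). In osteogenic medium 1 was higher, C1qa (0.43), and 6 were lower, where 9.09% of all genes passed. The summed FPKM of the 20 markers was 11456 to 21152 in control and 9417 to 11009 in knockout libraries of adipogenic medium. In osteogenic medium it was 16776 to 17195 in control and 17630 to 18091 in knockout libraries. Lyz2, which encodes lysozyme, was the largest part of the sum. It made up 53.4% to 54.4% of it in control and 62.0% to 62.7% in knockout libraries of osteogenic medium. In adipogenic medium its part was 47.6% to 68.9% in control and 40.8% to 45.5% in knockout libraries. Without Lyz2 the sum was 7819 to 7961 in control and 6574 to 6843 in knockout libraries of osteogenic medium, the reverse order, and 6000 to 7274 in control and 5572 to 5999 in knockout libraries of adipogenic medium. No marker was at 0 in all libraries. Adgre1, which encodes F4/80, was 1171, 227 and 1136 FPKM in control and 255, 129.6 and 127 FPKM in knockout libraries of adipogenic medium (-2.05 ± 0.54, adjusted p = 0.016). Itgam was lower there (-1.53 ± 0.34, adjusted p = 0.0070) and so was Csf1r (-0.80 ± 0.14, adjusted p = 0.0019), which was lower in osteogenic medium too (-0.68 ± 0.14, adjusted p = 0.014). Cd68 did not pass in adipogenic medium (0.01 ± 0.17, adjusted p = 0.967). The part of macrophage RNA in the results of the members was not tested.

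Some genes of the neutrophil list moved in the same libraries, while most of that list was near 0. Of 10 such genes 2 were tested, and both were lower in knockout libraries of adipogenic medium, as were 16.5% of all genes. S100a8, a calcium-binding protein of neutrophils and monocytes, was 65.8, 2.48 and 86.0 FPKM in control and 1.99, 1.22 and 1.82 FPKM in knockout libraries of that medium (-3.36 ± 0.95, adjusted p = 0.022). Csf3r, the receptor for G-CSF, was 28.7, 7.93 and 26.1 FPKM in control and 7.67, 5.19 and 4.64 FPKM in knockout libraries (-1.52 ± 0.37, adjusted p = 0.012). Both were highest in control adipogenic libraries 1 and 3, as were most members. Camp, which was not tested, reached 8.03 and 7.08 FPKM in those libraries and at most 0.946 FPKM in the others. Ly6g was at or below 0.0507 FPKM and S100a9 was listed at 0. Mpo, Elane, Cxcr2, Ltf and Ngp were at or below 0.135 FPKM in all libraries. The part of neutrophil RNA, if any, in the results of the members was not tested either.

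Levels were also set per 100 FPKM of the 20 macrophage markers, a scale in which Lyz2 was the largest part. Clec4n was then 0.305, 0.292 and 0.293 in control and 0.666, 0.736 and 0.731 in knockout libraries of osteogenic medium. In adipogenic medium Clec4n was 1.20, 0.500 and 1.26 in control and 0.149, 0.0682 and 0.0676 in knockout libraries. Clec7a on this scale was 0.137, 0.144 and 0.122 in control and 0.261, 0.29996 and 0.271 in knockout libraries of osteogenic medium. In adipogenic medium it was 0.142, 0.316 and 0.165 in control and 0.107, 0.136 and 0.127 in knockout libraries, and the lowest control lay just above the highest knockout library. Clec5a, with group means of 0.0906 in control and 0.0955 in knockout libraries, and Clec12a, with 0.157 and 0.135, overlapped between genotypes in adipogenic medium on this scale.

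Last, the 5 tested genes whose log2(FPKM + 1) correlated most with that of Clec4n over the 12 libraries were Hgsnat (r = 0.987), Ms4a14 (r = 0.985), Dnajc10 (r = 0.981), Snx6 (r = 0.979) and Htatip2 (r = 0.978). Hgsnat encodes a lysosomal acetyltransferase. Ms4a14 was 10.6, 11.1 and 10.2 FPKM in control and 17.1, 17.7 and 16.9 FPKM in knockout libraries of osteogenic medium, and 22.1, 11.9 and 20.2 FPKM in control and 8.12, 4.05 and 3.42 FPKM in knockout libraries of adipogenic medium. The points share libraries and groups, and the genes were picked for this likeness, so that r is a description.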

How the data were processed

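The 12 libraries were sorted into 4 groups of 3 by genotype and medium in their labels. The authors deposited 1 table of FPKM, fragments per kilobase of gene with depth divided out. Per the study's methods, the kit was NEBNext Ultra and the sequencer a HiSeq, and HISAT2 and Ballgown are among the software listed, whereas the submitters' processing notes name Bowtie 0.12.2 and mm9. The use of strand is not given in the sources used here. Coordinates, lengths and symbols (found for 99.8% of identifiers) came from GENCODE M21 on GRCm38. With these lengths, 98.2% to 98.4% of values under 30 fragments were within 0.02 of a whole number of fragments in each library (4% by chance), and 17490797 to 21093450 fragments per library were recovered. Replicate osteogenic libraries differed by 1.99 to 2.38 times what counting alone gives (median chi-square over genes), so that counting error is a large part of their spread. It weighs most on Clec10a and, in 8 libraries, on Clec4e.

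Group means of log2(FPKM + 1) were compared by limma 3.58.1 (R 4.3.3, trended variance). Genes entered the fit if 3 or more libraries had an FPKM of 1 or more, which left 12871. The Benjamini-Hochberg method adjusted p over all of them, and calls were made at 0.05. All 10 members passed this filter, Clec4e through its adipogenic libraries alone. Values are on that log2 scale, which understates changes of low genes. A simulation was run as well. Its settings and result are not given here, so it lends no weight to calls made with a spread shared by both media. The averages over media and over genotypes would be independent of the difference of differences that chose Clec4n if groups had equal spread. The spread was unequal, so for Clec4n these averages are not independent of that choice. No replicate block was used, since libraries with equal replicate numbers did not all deviate together. The members and lists were chosen with earlier results of these data known. Genes named are the members, Fcer1g, Tyrobp, Syk, Card9 and Ptpn6, the 3 genes of each of 2 further lists with the largest average difference in genotype and in medium, 4 macrophage markers, the 5 genes most like Clec4n, and Chd7. Markers at 0, Bst2, Lyz2, C1qa, C1qb, Mertk, the neutrophil markers and genes that share sequence with members were named after their values were seen. Promoters were read from RefSeq on GRCm38.p6, and 50-base stretches from GENCODE M21 transcripts. Figures were drawn in Python with matplotlib. Alternatives were a pseudocount of 0.1, no filter, equal sums per library (TPM), median-ratio scaling, no trend, limma voom on recovered fragments, a replicate block, the libraries of 1 medium alone, another set of macrophage genes, and each library left out.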

Additional observations from a re-analysis of the deposited data

Results flagged for a closer look

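Clec4n and Clec7a were singled out because all 3 knockout libraries lay above all 3 controls in osteogenic medium and below all 3 in adipogenic medium. The genotype difference in adipogenic medium minus that in osteogenic medium was -5.31 for Clec4n and -2.46 for Clec7a on the log2(FPKM + 1) scale. These differences between the media were not tested, since the choice of genes used them. No fixed rule for outlying samples was applied to groups of 3 libraries. Each library was compared with its group by correlation and left out in turn, and the adipogenic libraries that stood apart are described above.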

How the results depend on the processing

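The genotype count in osteogenic medium was 1 of 9 members and became 5 with the 6 osteogenic libraries alone (26.6% of all genes). That in adipogenic medium was 5 of 9, became 1 with the 6 adipogenic libraries alone (13% of all genes), and ranged from 3 (without knockout adipogenic library 3, 21.4% of all genes) to 8 (without control adipogenic library 2, 51.2% of all genes) when a library was left out. The count averaged over media was 2 of 10, became 0 by limma with no filter on low values (6 at an unadjusted p under 0.05, 8.25% of all genes called), and ranged from 0 (5 or 6 unadjusted) to 6 when a library was left out. The medium count was 3 of 10 and ranged from 2 to 9. The highest of both came without control adipogenic library 2 (44.3% and 51.8% of all genes). Clec4n in the count averaged over media, Clec4e in all counts and Clec10a in the medium count stand as a description. The cause of these changes in the counts was not tested.

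With a replicate block the counts were 1, 5, 4 and 5 in the same order. Of all genes 7.91%, 32.4%, 21.3% and 30.8% were then called. Libraries with the same replicate number did not all deviate together. The correlations of their deviations ran from -0.038 to 0.058 between the osteogenic genotype groups. Between the adipogenic genotype groups they were 0.47 for replicate 1, 0.40 for replicate 2 and -0.29 for replicate 3. Unlike numbers correlated as much there, with 0.45 for control library 3 and knockout library 1, so the numbers were not taken as pairs.

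Small values changed sign. With TPM these were Clec10a in osteogenic medium (-0.00374), Chd7 averaged over media (0.0053) and Card9 in adipogenic medium (0.092). When a library was left out, Clec4a3 in osteogenic medium ranged from -0.10 to 0.0093, Clec10a from -0.069 to 0.061 and the medium difference of Fcer1g from -0.0974 to 0.055. Per summed Adgre1, Csf1r, Cd68 and Itgam in place of 20 markers, the osteogenic log2 ratios became 0.11 for Clec4d, 0.18 for Clec4a3 and 0.23 for Clec10a. Of the other values of the members, 879 kept direction and side of the threshold, 49 fell short of it, 34 came to pass it and 3 without a test moved. Fragment numbers limit Clec10a and, in the 6 osteogenic libraries and knockout adipogenic libraries 2 and 3, Clec4e.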

Other observations

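The 10 neutrophil markers summed to 10.6, 103 and 119 FPKM in control adipogenic libraries from the lowest to the highest and to at most 14.9 FPKM in the other groups. Ly6g, S100a9, Mpo, Elane, Cxcr2, Ltf and Ngp were at or below 0.135 FPKM throughout. The 10 dendritic cell markers summed to 102 to 131 FPKM in knockout adipogenic and to 109 to 510.1 FPKM in control adipogenic libraries, most of it Bst2. Osteoclast markers summed to 74.5 to 120.9 FPKM, endothelial markers to 5.15 to 12.0 FPKM, and mast cell, lymphoid and erythroid markers to at most 0.541 FPKM in any library. Mesenchymal stromal markers summed to between 1274 and 1908 FPKM.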
